A study of Homo sapiens with 36 samples.

Results

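SUP-T1 is a human T-lymphoblastic leukaemia line, and its 3 libraries carrying a scrambled control hairpin were set against the scrambled control libraries of 3 other lines of T-cell acute lymphoblastic leukaemia (T-ALL): 3 of CCRF-CEM, 2 of MOLT4 and 3 of THP6. These 11 libraries are part of 36 polyadenylated RNA libraries from 7 T-cell neoplasm lines, each line with a hairpin against GATA3 or the scrambled control. The control libraries are labelled wild type for GATA3, all 4 lines are labelled Acute Lymphoblastic Leukemia, and the labels give RPMI medium with 10% fetal bovine serum for all. A gene was said to set SUP-T1 apart when it differed from each of the 3 other lines in the same direction, each time with a Benjamini-Hochberg adjusted p under 0.05 in edgeR's quasi-likelihood test and a log2 difference of at least 1. Because the GATA3 levels of the SUP-T1 libraries go against their labels (next paragraphs), every such gene was tested again with the 3 SUP-T1 libraries labelled GATA-3 knock-down in place of the control ones. A gene that passed both times is called held. The other lines are these 3, by their control libraries, unless a sentence names further ones. Each line is 1 line and not a sample of lines, and the labels do not say whether a line's libraries come from separate cultures. The p-values therefore measure how far libraries of a line scatter, which may be technical. Levels are CPM, each gene's count scaled to a common library total. They compare libraries for 1 gene and not genes with each other, and in bulk RNA fewer cells with a transcript and less transcript per cell cannot be told apart.

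Developing T cells in the thymus depend on the receptor NOTCH1, which on ligand binding releases an intracellular fragment that acts with the DNA-binding protein RBPJ on target genes such as the HES and HEY repressors, NRARP, DTX1 and PTCRA. Cortical thymocytes at the stage with both CD4 and CD8 also carry CD1 proteins and express the recombinases and the terminal transferase that assemble T cell receptor genes. T-ALL arises from such precursors, often with mutated or overexpressed NOTCH1 and with a transcription factor such as TAL1, LMO2 or an NKX2 protein switched on where it should be silent. SUP-T1 is known for a translocation that joins the T cell receptor beta locus to NOTCH1, and CCRF-CEM for one that places NKX2-5 beside BCL11B.

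Of 18291 genes tested, 6310 (34.5%) differed between SUP-T1 and CCRF-CEM, 3143 (17.2%) higher and 3167 (17.3%) lower in SUP-T1. Against MOLT4 there were 5893 (32.2%), with 2169 (11.9%) higher and 3724 (20.4%) lower. Against THP6 there were 6616 (36.2%), with 3338 (18.2%) higher and 3278 (17.9%) lower. Together 994 genes (5.43%) were higher and 1298 (7.1%) lower in SUP-T1 than in every other line. Of these, 686 higher genes (3.75% of those tested) and 1048 lower genes (5.73%) held, 1734 genes in all (9.48%). SUP-T1 had more lower than higher genes, whereas the same rule applied to MOLT4 gave 1450 higher (7.93%) and 397 lower (2.17%). It gave 713 higher (3.9%) and 740 lower (4.05%) for CCRF-CEM, and 788 higher (4.31%) and 927 lower (5.07%) for THP6. These comparisons share libraries, since each line serves as a control for the others. At the edge of the threshold, POLR2J4 had a smallest difference of 1.001 and passed on the higher side, and on the lower side CITED2 had -1.001 and passed, and VAMP8 had -0.999 and did not.

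GATA3, the transcription factor that the hairpin targets, was at 24.3, 23.6 and 24.2 CPM in the SUP-T1 controls and at 81.3, 77.2 and 86.6 CPM in the SUP-T1 libraries labelled knock-down. The other lines' controls had 82.6, 92.2 and 84.1 CPM in CCRF-CEM, 64.6 and 64.8 CPM in MOLT4 and 145, 125 and 134 CPM in THP6. The SUP-T1 libraries labelled knock-down thus had more GATA3 than those labelled control, by 1.76 on the log2 scale (SE 0.072, edgeR adjusted p = 3.13e-10). GATA3 was lower in the SUP-T1 controls than in every other line, with a smallest log2 difference of -1.43, but not in the libraries labelled knock-down, whose difference nearest to 0 was -0.08 (edgeR's largest adjusted p = 0.381). Whether the labels of the 2 SUP-T1 arms are exchanged cannot be told from these data, so a gene is called held when it passed with each arm, and values of both arms are given for the main genes.

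The 14 libraries used held 18.6 M to 36.2 M counts each, so that 3 counts, the limit a count of 0 allows, correspond to 0.0815 to 0.162 CPM, for counting error alone. CCRF-CEM control 2 stood apart from its replicates in scatter, and leaving it out changed no count by more than 1.5 times. All 10 markers of T cells were at 1 CPM or more in every SUP-T1 control, with a summed level of 3440 to 3630 CPM there, 3010 to 3200 CPM in SUP-T1 labelled knock-down and 1490 to 3220 CPM in the other lines' controls. The 10 B cell markers summed to 4.58 to 5.15 CPM in SUP-T1 controls against 60.4 to 700 CPM in the other lines, where IGLL1, a surrogate light chain gene, made up most; CD22, MS4A1, EBF1 and VPREB1 had 0 counts in the SUP-T1 controls. The 10 myeloid markers summed to 0.126 to 0.416 CPM in SUP-T1 controls against 5.94 to 36.2 CPM, and CD33, S100A8, S100A9, FCGR1A and ELANE had 0 counts. Markers of 4 further cell types, namely NK, erythroid, fibroblast and epithelial cells, summed to at most 8.41 CPM in the SUP-T1 controls.

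Of 35 tested receptors, ligands, modulators and targets of the Notch pathway, 9 (25.7%) held as higher in SUP-T1, against 3.75% of all tested genes, and 3 (8.57%) as lower, against 5.73%. The higher ones were the receptors NOTCH1 and NOTCH3 and the targets NRARP, HES4, HES5, HEY1, DTX1, PTCRA and IGF1R. The lower ones were the ligand JAG2, the glycosyltransferase LFNG, which modifies Notch receptors, and CD44. The list's median difference was 0.26 on the log2(CPM + 1) scale with the control libraries and -0.068 with the libraries labelled knock-down, beside -0.032 and -0.038 over all tested genes, so the list as a whole was not shifted. The promoters of HES5 and HES4 are shown here because both genes held and carry the letters GTGGGAA, the core that RBPJ recognises, or the reverse complement TTCCCAC. They are the 250 bases before the start in RefSeq's GRCh38.p14, on the minus strand at chr1:2530264-2530513 for HES5 and chr1:1000098-1000347 for HES4, with the core in capitals.
HES5: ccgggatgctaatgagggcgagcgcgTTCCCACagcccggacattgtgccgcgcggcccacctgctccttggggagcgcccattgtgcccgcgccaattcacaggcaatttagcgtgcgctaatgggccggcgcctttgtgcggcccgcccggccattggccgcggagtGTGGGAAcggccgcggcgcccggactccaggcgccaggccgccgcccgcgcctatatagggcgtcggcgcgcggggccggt
HES4: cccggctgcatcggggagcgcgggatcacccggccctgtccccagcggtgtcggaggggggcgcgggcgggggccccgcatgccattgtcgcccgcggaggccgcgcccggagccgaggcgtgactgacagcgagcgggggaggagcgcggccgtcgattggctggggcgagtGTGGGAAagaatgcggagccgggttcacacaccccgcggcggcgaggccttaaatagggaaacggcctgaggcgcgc
The matches begin 224 and 81 bases before the HES5 start and 77 bases before the HES4 start. Over promoter windows from 250 bases before to 50 after the start, both strands searched, 2 of the 7 held higher Notch genes with a RefSeq promoter held a match, as did 4 of the 23 other tested members with one, and 7.62% of all 27305 genes with one. A match is a description of letters and says nothing on binding.

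The receptor NOTCH1 was at 1940, 1870 and 1850 CPM in the SUP-T1 controls and 1720, 1710 and 2000 CPM in SUP-T1 labelled knock-down. It was at 192, 257 and 225 CPM in CCRF-CEM, 482 and 543 CPM in MOLT4 and 204, 187 and 219 CPM in THP6. Every SUP-T1 library lay above every library of the other lines, and MOLT4 came nearest. The differences were 3.07 (SE 0.0988), 1.88 (SE 0.109) and 3.21 (SE 0.0994) on the log2 scale against CCRF-CEM, MOLT4 and THP6, with edgeR adjusted p up to 8.44e-10. NOTCH3, a receptor that is itself a target of NOTCH1, was at 264, 260 and 277 CPM in the SUP-T1 controls and 390, 364 and 561 CPM in SUP-T1 labelled knock-down. The other lines had 5.56, 5.55 and 6.25 CPM in CCRF-CEM, 41.7 and 39.8 CPM in MOLT4 and 4.29, 3.41 and 4.06 CPM in THP6. These control groups did not overlap, and the smallest difference, 2.71 (SE 0.0801) on the log2 scale, was again that against MOLT4. The MOLT4 libraries labelled knock-down, at 263 and 311 CPM, were at the level of the SUP-T1 controls. The 2 SUP-T1 arms also differed, with NOTCH3 higher in the libraries labelled knock-down by 0.71 on the log2 scale (edgeR adjusted p = 3.56e-04).

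Among the targets, NRARP, a feedback inhibitor of Notch signalling, reached 388, 354 and 359 CPM in the SUP-T1 controls and 340, 332 and 280 CPM in SUP-T1 labelled knock-down. It was at 0.27, 0.539 and 0.481 CPM in CCRF-CEM, 0.216 and 0.165 CPM in MOLT4, and at 0 counts in all 3 THP6 controls. SUP-T1 controls were 9.75 (SE 0.126) and 10.88 (SE 0.164) higher on the log2 scale than CCRF-CEM and MOLT4, and at least 3180-fold higher than THP6, reckoned against 3 counts per library. HES5, a transcriptional repressor, was at 66.7, 62.3 and 70.0 CPM in the SUP-T1 controls and 81.3, 87.9 and 72.6 CPM in SUP-T1 labelled knock-down. It had 0 counts in CCRF-CEM and MOLT4 and 2 counts in all 3 THP6 libraries together. SUP-T1 was at least 533-fold higher than CCRF-CEM and at least 640-fold higher than MOLT4. HES4 was at 391, 446 and 383 CPM in the SUP-T1 controls and 378, 368 and 403 CPM in SUP-T1 labelled knock-down, against 27.4, 35.7 and 28.6 CPM in CCRF-CEM, 7.31 and 6.05 CPM in MOLT4, and 64.8, 48.9 and 48.9 CPM in THP6. So HES4, unlike HES5, was present in all 4 lines, and its smallest difference was 2.90 (SE 0.12) on the log2 scale against THP6. HEY1, another repressor of this family, averaged 55.3 ± 4.24 CPM in SUP-T1 controls and 55.3 ± 5.53 CPM in SUP-T1 labelled knock-down (SD, n = 3 each), against 0.196 ± 0.0724 CPM in CCRF-CEM, 0.0525 ± 0.0275 CPM in MOLT4 (n = 2) and 1.21 ± 0.277 CPM in THP6.

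PTCRA, the pre-T cell receptor alpha chain, was at 206, 220 and 241 CPM in the SUP-T1 controls and 150, 151 and 141 CPM in SUP-T1 labelled knock-down. MOLT4 had 17.3 CPM in both libraries, THP6 0.065, 0.138 and 0.0966 CPM, and CCRF-CEM 0 counts. The SUP-T1 controls were 3.68 (SE 0.0931) above MOLT4 on the log2 scale, and no library of another line reached a SUP-T1 library. DTX1, a ubiquitin ligase of the Notch pathway, averaged 699 ± 9.76 CPM in SUP-T1 controls and 792 ± 50.4 CPM in SUP-T1 labelled knock-down, against 3.03 ± 0.363 CPM in CCRF-CEM, 96.6 ± 0.153 CPM in MOLT4 and 53.7 ± 9.07 CPM in THP6. In the MOLT4 libraries labelled knock-down DTX1 was at 740 and 745 CPM, above all 3 SUP-T1 controls. IGF1R, a growth factor receptor, averaged 146 ± 5.45 CPM and 130 ± 20.3 CPM in the 2 SUP-T1 arms in that order, against 39.2 ± 4.62, 27.3 ± 1.49 and 21.9 ± 1.23 CPM in CCRF-CEM, MOLT4 and THP6.

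Other Notch genes did not follow. The target HES1 was at 74.6, 73.1 and 67.7 CPM in the SUP-T1 controls, against 74.3, 73.4 and 77.1 CPM in CCRF-CEM and 78.1, 60.0 and 66.2 CPM in THP6, and did not differ from either past the threshold (log2 differences -0.06 and 0.07); against MOLT4 it was higher by 0.77, short of the minimum size. MYC, another Notch target in T-ALL, was lower than in CCRF-CEM (-0.53) and MOLT4 (-0.31) and higher than in THP6 (0.62 on the log2 scale), each short of the minimum size. The ligand JAG2 had 3 counts in all SUP-T1 controls together and 1 count in the libraries labelled knock-down. It averaged 21.8 ± 2.88 CPM in CCRF-CEM, 8.79 ± 0.599 CPM in MOLT4 and 8.60 ± 0.549 CPM in THP6. CD44, a hyaluronan receptor found on early thymic progenitors and activated T cells, was at 10.9, 9.84 and 8.28 CPM in SUP-T1 controls and 10.2, 11.3 and 11 CPM in SUP-T1 labelled knock-down, against 188, 182 and 192 CPM in CCRF-CEM, 62.1 and 59.9 CPM in MOLT4 and 126, 112 and 112 CPM in THP6. CD44 was lower than in every other line, with a smallest log2 difference of -2.66 (SE 0.0938) against MOLT4. LFNG was low throughout, at 0.161 ± 0.0665 CPM in SUP-T1 controls against 1.04 ± 0.145, 0.351 ± 0.216 and 3.39 ± 0.366 CPM in CCRF-CEM, MOLT4 and THP6. It barely passed against MOLT4 (log2 difference -1.11, edgeR adjusted p = 0.0486) and its adjusted p ran from 0.00825 to 0.707 over the alternatives. Leaving out any control library other than SUP-T1 control 1 or MOLT4 control 2 ended its call. Without MOLT4 control 1 the difference was -0.32.

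**Figure D1:**
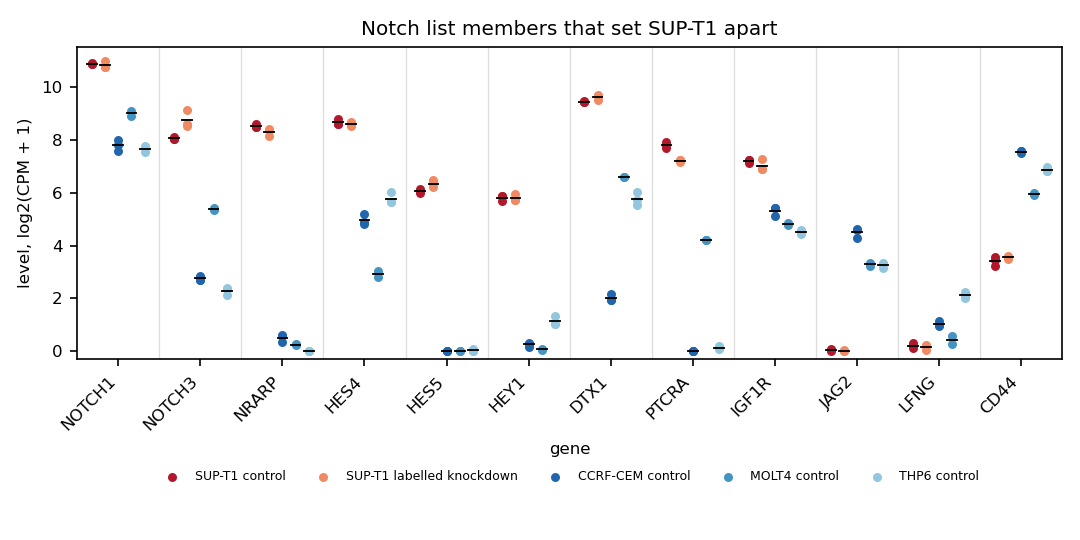
Level of the 12 held Notch list members as log2(CPM + 1), vertical axis, in each of 14 libraries; each point is a library, black bars are means of the 2 or 3 libraries of a group, and colours give line and label. Both SUP-T1 groups lie above the other lines for the 9 genes from NOTCH1 to IGF1R and below them for JAG2 and CD44. For LFNG the SUP-T1 controls overlap MOLT4, and the libraries labelled knock-down lie just below it.

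Of 30 tested antigens of thymocyte stages, 9 (30%) held as higher in SUP-T1 and 2 (6.67%) as lower, beside 3.75% and 5.73% of all tested genes. The list's median difference was 1.25 on the log2(CPM + 1) scale, and 0.812 with the libraries labelled knock-down. The higher members were CD1A, CD1B, CD1C, CD1E, CD8A, CD8B, CD2, CD28 and IL7R, and the lower ones CCR7 and CD44. CD1B, a lipid antigen-presenting protein, was at 487, 478 and 474 CPM in the SUP-T1 controls and 299, 313 and 265 CPM in SUP-T1 labelled knock-down. It was at 5.21, 3.56 and 6.77 CPM in CCRF-CEM, 13.8 and 14.7 CPM in MOLT4 and 0.0975, 0.0345 and 0 CPM in THP6. The groups were far apart, with a smallest log2 difference of 5.07 (SE 0.153) against MOLT4, and THP6 was nearly without the transcript. CD1A was at 453, 452 and 430 CPM in the SUP-T1 controls and 163, 175 and 148 CPM in SUP-T1 labelled knock-down, against 20.4, 21.0 and 24.4 CPM in CCRF-CEM, 46.4 and 44.7 CPM in MOLT4 and 0.228, 0.138 and 0.145 CPM in THP6. CD1A held in both arms, and the arms differed, with the libraries labelled knock-down lower by a log2 difference of -1.46 (SE 0.075, edgeR adjusted p = 2.71e-09). CD1E averaged 324 ± 22.1 CPM in SUP-T1 controls and 348 ± 22.1 CPM in SUP-T1 labelled knock-down, and CD1C 34.7 ± 1.99 and 33.6 ± 1.89 CPM, each above every library of the other lines. CD1D, the member that presents lipids to NKT cells, averaged 34.9 ± 0.501 CPM in SUP-T1 controls against 28.7 ± 1.82 CPM in MOLT4 and did not differ from MOLT4 past the threshold (edgeR adjusted p = 0.0601).

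The CD8 chains followed the same order. CD8B was at 168, 170 and 178 CPM in the SUP-T1 controls and 181, 173 and 158 CPM in SUP-T1 labelled knock-down, against 0.0386, 0.0539 and 0.0641 CPM in CCRF-CEM, 0.288 and 0.595 CPM in MOLT4 and 0.065, 0 and 0 CPM in THP6. CD8A was at 104, 103 and 101 CPM in the SUP-T1 controls and 121, 129 and 124 CPM in SUP-T1 labelled knock-down, against 2.39, 2.75 and 2.34 CPM in CCRF-CEM, 34.2 and 35.0 CPM in MOLT4, and 0.358, 0.207 and 0.0966 CPM in THP6. CD8A was thus present in MOLT4 at a log2 difference of 1.57 (SE 0.0865), while CD8B was at 26 counts in the MOLT4 pair. CD8B has near-identical copies in the genome, so how RSEM split shared reads is uncertain. CD4 averaged 367 ± 15.7 CPM in SUP-T1 controls and 308 ± 14.8 CPM in SUP-T1 labelled knock-down, against 156 ± 9.01 CPM in CCRF-CEM, 3.15 ± 0.335 CPM in MOLT4 and 8.81 ± 0.519 CPM in THP6. It set the SUP-T1 controls apart and missed the minimum size with the libraries labelled knock-down against CCRF-CEM (0.98 on the log2 scale). CD28, a costimulatory receptor, averaged 109 ± 7.17 CPM in SUP-T1 controls against 2.87 ± 0.43, 0.171 ± 0.0385 and 33.6 ± 2.28 CPM in CCRF-CEM, MOLT4 and THP6. CCR7, which guides mature T cells to lymph nodes, was at 1.70, 2.15 and 1.41 CPM in SUP-T1 controls and 1.23, 1.42 and 1.31 CPM in SUP-T1 labelled knock-down, and at 28.2 to 57.7 CPM in the 8 other libraries.

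In V(D)J recombination, 2 of 13 tested genes (15.4%) held as higher and none as lower, beside 3.75% and 5.73% of all tested genes. DNTT, the terminal transferase, was at 42.1, 38.3 and 38 CPM in the SUP-T1 controls and 56.9, 58.9 and 48.1 CPM in SUP-T1 labelled knock-down, against 0.0386, 0 and 0.128 CPM in CCRF-CEM, 0.036 and 0.0331 CPM in MOLT4 and 1.14, 0.690 and 0.483 CPM in THP6. No library of another line came near a SUP-T1 library; the log2 differences were 9.13 (SE 0.278) against CCRF-CEM and 5.61 (SE 0.19) against THP6. The recombinase gene RAG2 averaged 110 ± 3.75 CPM in SUP-T1 controls and 83.6 ± 0.085 CPM in SUP-T1 labelled knock-down, against 8.76 ± 1.00 CPM in CCRF-CEM, 34.4 ± 0.622 CPM in MOLT4 and 2.16 ± 0.358 CPM in THP6. Its partner RAG1, which overlaps it on the opposite strand, averaged 236 ± 15.3 CPM in SUP-T1 controls and 221 ± 7.11 CPM in MOLT4 and did not differ there (edgeR adjusted p = 0.355).

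Of 11 tested T cell receptor and CD3 genes, 3 (27.3%) held as higher and none as lower, beside 3.75% and 5.73% of all tested genes. The 3 were TRAC, TRAT1 and PTCRA, which is also counted in the Notch list. TRAC, the alpha constant gene, was at 62.4, 66.4 and 67.3 CPM in the SUP-T1 controls and 14.9, 14.7 and 12.5 CPM in SUP-T1 labelled knock-down. The other lines ranged up to 1.03 CPM, in CCRF-CEM. Both arms exceeded the 3 other T-ALL lines, while the H9 controls, of a cutaneous lymphoma line, had 101 and 95.1 CPM. The arms differed by a log2 value of -2.22 (SE 0.0911, edgeR adjusted p = 3.13e-10), the libraries labelled knock-down being lower. The beta constant gene TRBC2 averaged 1860 ± 60.2 CPM in SUP-T1 controls, against 2270 ± 132 CPM in MOLT4, and CD3E averaged 664 ± 27.9 CPM, against 603 ± 3.48 CPM in MOLT4; neither set SUP-T1 apart. Of T cell receptor variable segments with enough counts, 1 of 3 alpha and 3 of 12 beta segments held as higher. Of immunoglobulin heavy variable segments 3 of 13 did, beside 3.75% of all tested genes. The filter lets in a segment with counts in 1 line alone, so these shares cannot be read as an excess. Of 37 proximal signalling genes, the adaptors FYB1 and THEMIS (5.41%) held as higher, and NFATC2, SLA2 and UBASH3A (8.11%) as lower. These shares are not far above the 3.75% and 5.73% of all tested genes. THEMIS, needed for thymocyte selection in mice, averaged 99.4 ± 7.04 CPM in SUP-T1 controls and 69.4 ± 3.02 CPM in SUP-T1 labelled knock-down, against 15.3 ± 3.09, 9.35 ± 0.342 and 15.5 ± 0.719 CPM in CCRF-CEM, MOLT4 and THP6, and 1 of the 2 THP6 libraries labelled knock-down had 135 CPM.

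Of 18 tested transcription factors that drive T-ALL, 0 held as higher and 7 (38.9%) as lower, beside 3.75% and 5.73% of all tested genes. In single comparisons 13, 13 and 11 were lower than in CCRF-CEM, MOLT4 and THP6, beside 17.3%, 20.4% and 17.9% of all tested genes. In the same order 0, 2 and 0 were higher, beside 17.2%, 11.9% and 18.2%. The 7 were TAL1, LMO2, NKX2-5, HHEX, MYCN, ERG and HOXA13. Of these, HOXA13 was low in every line, at 0.0643 CPM in SUP-T1 controls against 1.44, 0.345 and 0.347 CPM in CCRF-CEM, MOLT4 and THP6. The list's median difference was -2.15 on the log2(CPM + 1) scale, and -2.17 with the libraries labelled knock-down. TAL1, a basic helix-loop-helix factor of blood stem cells, had 0 counts in all 6 SUP-T1 libraries. It was at 40.6, 43.3 and 43.6 CPM in CCRF-CEM, 37.8 and 44.1 CPM in MOLT4 and 72.4, 71.2 and 67.7 CPM in THP6, so that SUP-T1 controls were at least 424-fold lower than the lowest of the other lines. LMO2, a partner of TAL1, had 1 count in the 3 SUP-T1 controls and 6 counts in the libraries labelled knock-down, against 22.8, 23.2 and 22.9 CPM in CCRF-CEM, 35.2 and 37.4 CPM in MOLT4 and 32.1, 35.8 and 35.4 CPM in THP6. NKX2-5, a homeobox factor of the heart, had 1 count in the 6 SUP-T1 libraries, against 604, 697 and 634 CPM in CCRF-CEM, 29.8 and 31.7 CPM in MOLT4 and 314, 287 and 289 CPM in THP6. All 3 other lines had these transcripts, and SUP-T1 was at or near 0.

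HHEX, a homeobox factor downstream of LMO2, and MYCN, a relative of MYC, both had 0 counts in all 6 SUP-T1 libraries. HHEX averaged 41.6 ± 0.982 CPM in CCRF-CEM, 3.38 ± 0.0904 CPM in MOLT4 and 21.5 ± 1.18 CPM in THP6, and the SUP-T1 controls were at least 35.0-fold lower than the lowest of these. MYCN averaged 3.30 ± 0.713, 14.9 ± 0.0395 and 12.1 ± 1.63 CPM in the same 3 lines, a bound of at least 34.3-fold. ERG averaged 5.49 ± 0.579, 3.35 ± 0.103 and 1.59 ± 0.125 CPM there, against 3 counts in all SUP-T1 controls together. LYL1, another member of the list, was at 0.303, 0.489 and 0.220 CPM in SUP-T1 controls and equally low in MOLT4 (0.324 and 0.331 CPM), against 123 to 145 CPM in CCRF-CEM and 105 to 123 CPM in THP6; it did not set SUP-T1 apart. Among 47 T lineage factors, 3 held as higher (6.38%) and 5 as lower (10.6%), beside 3.75% and 5.73% of all tested genes. ID1, an inhibitor of E proteins, averaged 41.7 ± 1.5 CPM in SUP-T1 controls and 63.5 ± 6.07 CPM in SUP-T1 labelled knock-down, against 8.65 ± 0.618, 8.09 ± 0.0697 and 10.9 ± 1.27 CPM in CCRF-CEM, MOLT4 and THP6; the MOLT4 libraries labelled knock-down had 65.9 and 56 CPM. TOX2, an HMG box factor, averaged 21.7 ± 3.71 CPM in SUP-T1 controls against 0.41 ± 0.169, 5.04 ± 0.765 and 0.0506 ± 0.0518 CPM. KLF2, a factor of mature resting T cells, was at 0.189, 0.0272 and 0 CPM in SUP-T1 controls and at 0.580 to 4.30 CPM in the 8 other libraries.

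**Figure D2:**
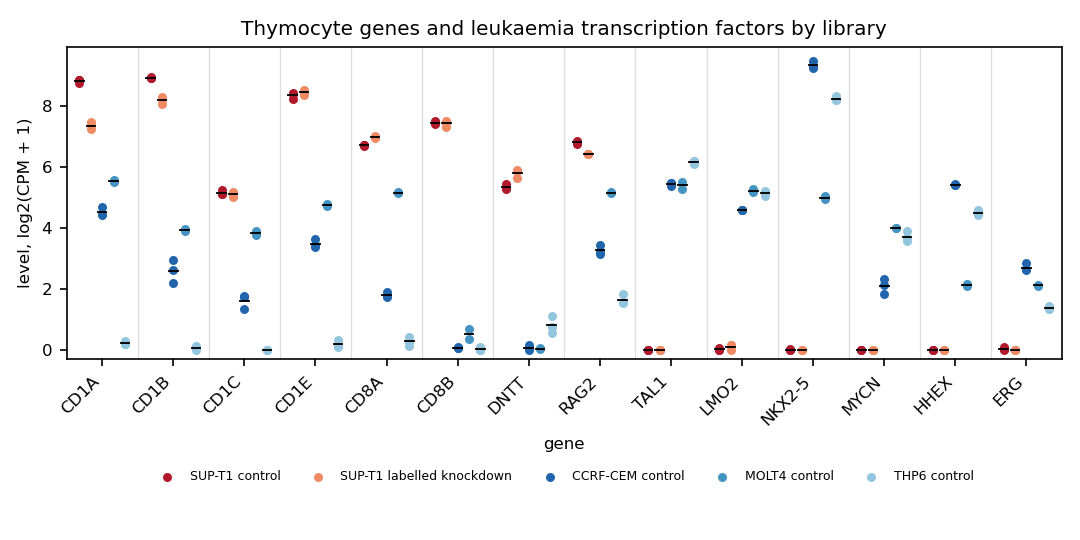
Level as log2(CPM + 1), vertical axis, of thymocyte stage genes (CD1A to RAG2) and T-ALL transcription factors (TAL1 to ERG) in 14 libraries; points are libraries, black bars group means, colours line and label. Both SUP-T1 groups are the highest for the first 8 genes and at or near 0 for the last 6.

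Genes of the interferon response made up the largest group among the lists on the lower side. Of 46 tested, 26 (56.5%) held as lower in SUP-T1 and 0 as higher, beside 5.73% and 3.75% of all tested genes. In single comparisons 34 were lower than in CCRF-CEM, 32 lower than in MOLT4 and 34 lower than in THP6, beside 17.3%, 20.4% and 17.9% of all tested genes. The list's median difference was -1.66 on the log2(CPM + 1) scale, and -1.51 with the libraries labelled knock-down. The mean level of the 26 ranged from 0 to 10.2 CPM in SUP-T1 controls, and 19 of them were under 1 CPM. Interferons act through receptors, the kinases JAK1 and TYK2 and factors that include STAT2 and IRF9, which bind a response element before such genes. The promoters of OAS3 and BST2 are shown because both genes held and carry that element, searched as GAAANNGAAA and its reverse complement TTTCNNTTTC. They are the 250 bases before the start in RefSeq's GRCh38.p14, at chr12:112938224-112938473 on the plus strand for OAS3 and chr19:17405631-17405880 on the minus strand for BST2, with matches in capitals.
OAS3: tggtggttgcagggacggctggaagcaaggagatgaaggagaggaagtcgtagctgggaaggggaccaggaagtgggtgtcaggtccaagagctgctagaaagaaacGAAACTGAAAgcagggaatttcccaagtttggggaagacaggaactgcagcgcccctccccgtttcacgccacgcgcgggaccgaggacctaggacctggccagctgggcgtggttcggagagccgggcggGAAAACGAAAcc
BST2: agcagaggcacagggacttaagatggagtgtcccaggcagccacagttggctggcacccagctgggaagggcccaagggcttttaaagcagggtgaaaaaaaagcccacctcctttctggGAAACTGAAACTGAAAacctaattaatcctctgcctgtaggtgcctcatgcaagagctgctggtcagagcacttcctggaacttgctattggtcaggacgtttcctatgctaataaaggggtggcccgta
The matches begin 143 and 12 bases before the OAS3 start, and 130 and 124 bases before the BST2 start, where both share 4 bases. In windows from 250 bases before to 50 after the start, 16 of the 20 held members with a RefSeq promoter had a match, as did 7 of the 14 other tested members with one, and 4.38% of all genes with one. Members that held and members that did not both carried the letters more often than promoters at large, and nothing on binding follows from it.

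OAS3, which makes the activator of the antiviral nuclease RNase L, had 1 count in the 3 SUP-T1 controls and 4 counts in the libraries labelled knock-down. It was at 38.2, 46.2 and 44.1 CPM in CCRF-CEM, 45.1 CPM in both MOLT4 libraries and 93.2, 84.4 and 89.2 CPM in THP6. Its neighbours OAS1 and OAS2 behaved alike, with 0 and 3 counts in the SUP-T1 controls; OAS2 averaged 15 ± 1.43 CPM in CCRF-CEM, 4.48 ± 0.0243 CPM in MOLT4 and 31.0 ± 0.96 CPM in THP6. IFITM2, a membrane protein that blocks virus entry, had 0 counts in the SUP-T1 controls and 3 counts in the libraries labelled knock-down, against 32.9, 38.5 and 35.4 CPM in CCRF-CEM, 30.8 and 27.8 CPM in MOLT4 and 153, 182 and 164 CPM in THP6. The SUP-T1 controls were at least 304-fold lower than the lowest of these lines. IFITM2 has close relatives beside it, so its share of their reads is uncertain. BST2, which tethers budding virus, was at 0.341, 0.217 and 0.439 CPM in SUP-T1 controls and 0.408, 0.484 and 0.5 CPM in SUP-T1 labelled knock-down, against 144, 153 and 141 CPM in CCRF-CEM, 13.0 CPM in both MOLT4 libraries and 73.9, 106 and 96.7 CPM in THP6. Its smallest difference was -5.29 (SE 0.238) on the log2 scale, against MOLT4.

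For other members the gap was narrower or rested on low levels. RSAD2, an antiviral enzyme, averaged 0.313 ± 0.0572 CPM in SUP-T1 controls and 0.316 ± 0.0748 CPM in SUP-T1 labelled knock-down, against 3.93 ± 0.312 CPM in CCRF-CEM, 3.96 ± 0.299 CPM in MOLT4 and 13.3 ± 0.659 CPM in THP6. MX1, a dynamin-like antiviral protein, was low in 3 of the 4 lines, at 0.115 ± 0.0974 CPM in SUP-T1 controls, 0.408 ± 0.0688 CPM in CCRF-CEM and 0.839 ± 0.142 CPM in THP6, while MOLT4 had 51.9 ± 0.888 CPM. ISG15, a ubiquitin-like protein, was no part of the held set: it was at 42.6, 36.8 and 40.6 CPM in SUP-T1 controls, between THP6 (49.3, 58.1 and 50.2 CPM) and MOLT4 (9.50 and 10.6 CPM). The upstream factors given here were no part of the held set. STAT2 (log2 differences of -1.04, -0.34 and -0.67 against CCRF-CEM, MOLT4 and THP6) and IRF9 (-0.27, -0.12 and -1.41) each passed the minimum size in 1 comparison, and IRF1, another inducer, was higher by 1.35, 0.97 and 0.57.

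Of 40 cytokine receptor and JAK-STAT genes, 9 (22.5%) held as lower and 1 (2.5%), IL7R, as higher, beside 5.73% and 3.75% of all tested genes. JAK3, the kinase of receptors with the common gamma chain, had 0 counts in all 6 SUP-T1 libraries. It was at 26.3, 28.7 and 29.2 CPM in CCRF-CEM, 15.8 and 16.1 CPM in MOLT4 and 29.9, 32.7 and 30.4 CPM in THP6, so that the SUP-T1 controls were at least 165-fold lower than MOLT4. STAT5A, a factor that JAK3 activates, was at 5.79, 5.95 and 4.80 CPM in SUP-T1 controls and 9.62, 11.9 and 11.4 CPM in SUP-T1 labelled knock-down, against 425, 481 and 460 CPM in CCRF-CEM, 300 and 302 CPM in MOLT4 and 133, 141 and 138 CPM in THP6. No SUP-T1 library reached 12 CPM, and the smallest difference was -4.64 (SE 0.0845) on the log2 scale against THP6. Its neighbour STAT5B averaged 129 ± 3.77 CPM in SUP-T1 controls against 161 ± 7.64 CPM in THP6, a log2 difference of -0.32 that is short of the minimum size. The other 2 lines had more STAT5B, 207, 225 and 230 CPM in CCRF-CEM and 404 and 403 CPM in MOLT4. SOCS2 and CISH, inhibitors that STAT5 induces, averaged 0.134 ± 0.0258 and 0.255 ± 0.114 CPM in SUP-T1 controls. In the other lines SOCS2 averaged 23.6 ± 2.55, 14 ± 0.400 and 18.3 ± 1.25 CPM in CCRF-CEM, MOLT4 and THP6, and CISH 8.27 ± 0.602, 8.81 ± 1.09 and 6.66 ± 0.678 CPM. IL7R, the receptor chain for interleukin-7, which signals through JAK1 and JAK3, was at 33.1, 31.6 and 32 CPM in SUP-T1 controls and 23.5, 24.5 and 22.8 CPM in SUP-T1 labelled knock-down, against 1.89 to 7.64 CPM in the 8 other libraries. The receptor was thus higher while the kinase and its factor were lower than in each other line.

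**Figure D3:**
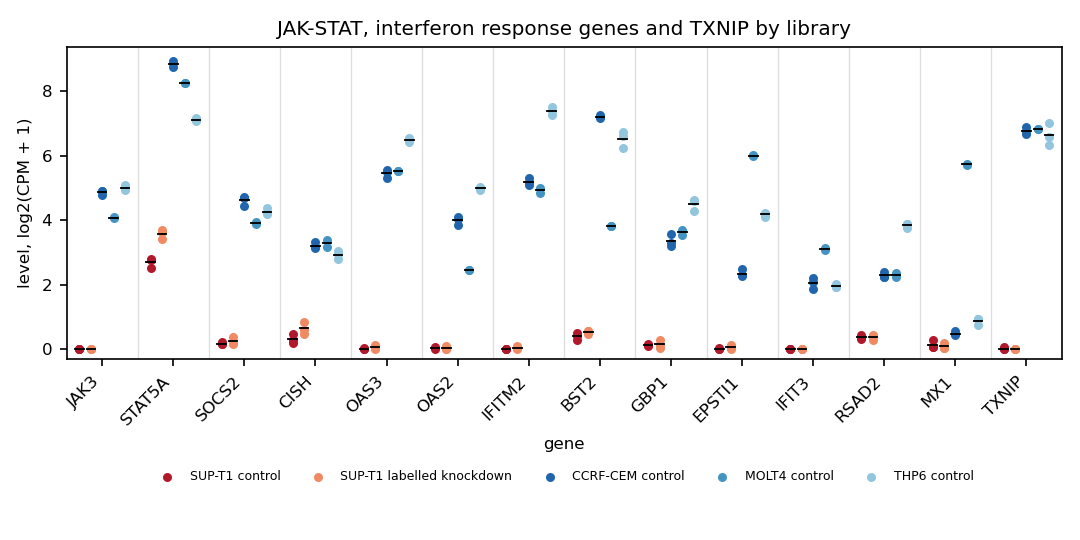
Level as log2(CPM + 1), vertical axis, of JAK-STAT genes (JAK3 to CISH), interferon response genes (OAS3 to MX1) and TXNIP in 14 libraries; points are libraries, black bars group means, colours line and label. The 6 SUP-T1 libraries lie below all others for every gene shown, and MX1 is low in CCRF-CEM and THP6 too.

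The 15 genes with the largest gaps on the higher side, ranked by the smallest of the 3 differences, were DOCK1, NRARP, SHISA9, SALL3, NLGN4X, CYFIP1, CD8B, HMGA2, NELL2, APP, HES5, CR2, C2CD4B, FGR and CFTR. DOCK1, an activator of the GTPase RAC, was at 261, 278 and 272 CPM in SUP-T1 controls and 222, 217 and 225 CPM in SUP-T1 labelled knock-down, and had 0 counts in all 8 other T-ALL control libraries. That is at least 2170-fold above CCRF-CEM, 2610-fold above MOLT4 and 2340-fold above THP6. HMGA2, a chromatin protein of embryonic cells, was likewise at 105, 105 and 102 CPM against 0 counts in all 8, a bound of at least 837-fold. CYFIP1, which binds the actin regulator RAC and the fragile X protein, averaged 713 ± 39.9 CPM in SUP-T1 controls and 739 ± 40.3 CPM in SUP-T1 labelled knock-down, against 1.43 ± 0.198 CPM in CCRF-CEM, 3.71 ± 0.1 CPM in MOLT4 and 0.983 ± 0.366 CPM in THP6. SALL3, a developmental zinc finger factor, averaged 286 ± 15.9 CPM in SUP-T1 controls against 35 counts in the MOLT4 pair and 0 counts in CCRF-CEM and THP6. APP, the amyloid precursor, averaged 198 ± 10.3 CPM in SUP-T1 controls and 344 ± 34.7 CPM in SUP-T1 labelled knock-down, and at most 1.61 ± 0.224 CPM in another of the T-ALL lines. Controls of the cutaneous lymphoma lines H9 (438 and 420 CPM) and Mac1 (712 and 754 CPM) had more APP than the SUP-T1 controls. CR2, the complement and Epstein-Barr virus receptor, averaged 144 ± 15.1 and 72.4 ± 6.58 CPM in the 2 arms, FGR, a Src-family kinase, 104 ± 1.55 and 39.1 ± 1.9 CPM, and CFTR, a chloride channel, 122 ± 8.61 and 303 ± 23.5 CPM. For these 3 the arms differed past an edgeR adjusted p of 0.05 (log2 differences of libraries labelled knock-down minus control of -0.99, -1.42 and 1.31), yet both arms were far above the other lines.

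On the lower side the 15 were TXNIP, LGALS9, FXYD5, THEM6, GTSF1, ZNF521, OAS3, TFCP2, MLC1, RAB4A, TAL1, ALDH1A2, HHIP-AS1, SH3PXD2A and TUSC3. TXNIP, an inhibitor of thioredoxin and of glucose uptake, had 2 counts in the 3 SUP-T1 controls and 0 counts in the libraries labelled knock-down, against 107, 99.8 and 116 CPM in CCRF-CEM, 111 CPM in both MOLT4 libraries and 127, 78.9 and 94.0 CPM in THP6. LGALS9, a galectin with near-identical copies in the genome, averaged 0.376 ± 0.0605 CPM in SUP-T1 controls against 129 ± 6.9, 132 ± 3.5 and 90.7 ± 7.56 CPM in CCRF-CEM, MOLT4 and THP6; its smallest difference was -7.89 (SE 0.125) on the log2 scale. FXYD5, a regulator of the sodium pump, had 0 counts in all 6 SUP-T1 libraries against 62.1 to 183 CPM in the 8 others, at least 654-fold lower. GTSF1, a germ-line factor of the piRNA pathway in mice, had 0 counts in all 6 against 52.8 to 254 CPM, at least 554-fold lower. ALDH1A2, an enzyme that makes retinoic acid, averaged 0.0895 ± 0.0538 CPM in SUP-T1 controls against 243 ± 14.9, 644 ± 19.8 and 44.3 ± 3.92 CPM in CCRF-CEM, MOLT4 and THP6. TFCP2, a transcription factor found in most tissues, had 1 count in each SUP-T1 arm, against 39.2 to 70.1 CPM in the 8 other libraries. These 30 genes were chosen by the size of this contrast, so their values are a description.

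**Figure D4:**
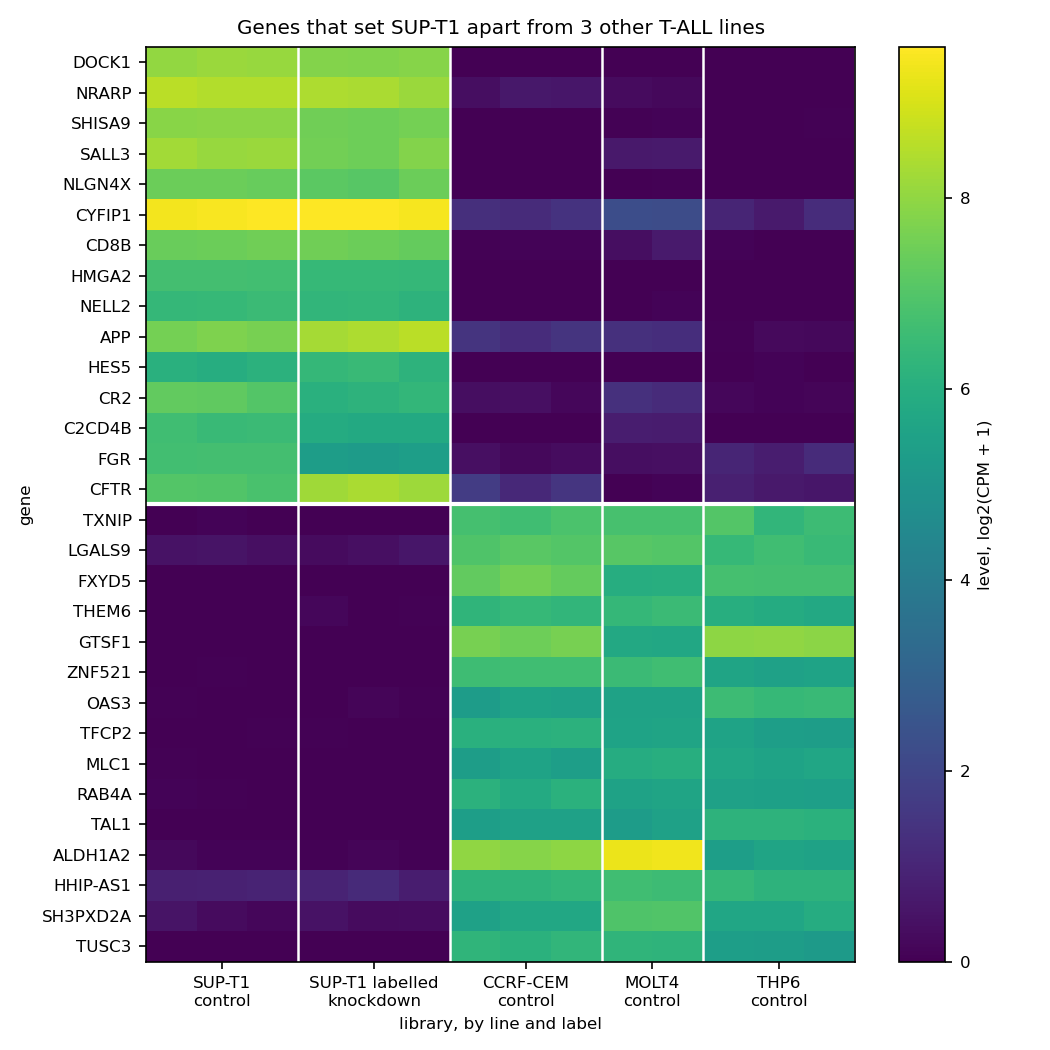
Level as log2(CPM + 1), colour scale, of the 15 genes with the largest gaps on the higher side (above the white line) and the 15 on the lower side (below it), rows, in 14 libraries, columns, grouped by line and label. The 6 SUP-T1 columns are alike in every row and opposite to the 8 columns of the other lines; CFTR and APP are brighter, and FGR and CR2 darker, in the libraries labelled knock-down than in the SUP-T1 controls.

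Some transcripts had no count at all in SUP-T1. Of 60623 gene identifiers, 36 had 0 counts in all 6 SUP-T1 libraries and at least 5 CPM in each of the 8 other T-ALL control libraries. They were chosen after their values were seen, so the counts in this paragraph are a description. Among the 36, 12 had at least 5 CPM in all 30 other libraries of the series: FXYD5, NFATC2, PDK2, ZFAND4, JAK3, LACTB2, DOCK10, COTL1, PRDM8, KCTD3, TMCO4 and NUDT14. NFATC2, a factor that T cell receptor signals activate, ranged from 26.2 to 173 CPM over those 30 libraries, and PDK2, a kinase that holds back pyruvate dehydrogenase, from 19.2 to 72.3 CPM. DOCK10, like DOCK1 an activator of small GTPases, ranged from 13.3 to 195 CPM. The opposite pattern, 0 counts in the 8 other T-ALL controls and at least 5 CPM in all 6 SUP-T1 libraries, was met by 10 of the 60623. Among them were the beta variable segment TRBV9 (325 to 437 CPM in SUP-T1), DOCK1, HMGA2 and the amino acid transporter SLC6A15 (19.8 to 32 CPM). CCDC50 and DYNLT3 of that set reached 280 and 18.0 CPM in control libraries of the cutaneous lymphoma lines.

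Of 28 tumour suppressors and cell cycle inhibitors, 2 held as higher (7.14%), CDKN1A among them, and CDKN1C, DNMT3B and WT1 (10.7%) held as lower. Over all tested genes 3.75% held as higher and 5.73% as lower, the shares to set beside each list of this paragraph. With so few genes per list, the values describe the genes and not the lists. The cell cycle inhibitor CDKN1A averaged 27.3 ± 1.61 CPM in SUP-T1 controls against 8.19 ± 0.51, 7.38 ± 0.661 and 1.11 ± 0.222 CPM in CCRF-CEM, MOLT4 and THP6, while the MOLT4 libraries labelled knock-down had 38.9 and 39.4 CPM. Of 19 cyclins and their kinases, CCND3 held as higher and CCND2 as lower (5.26% each), near the shares of all tested genes. CCND3, the D cyclin that thymocytes need in mice, averaged 1700 ± 59.0 CPM in SUP-T1 controls and 1290 ± 45.5 CPM in SUP-T1 labelled knock-down, against 622 ± 34.6, 511 ± 16.4 and 331 ± 5.43 CPM. The MOLT4 libraries labelled knock-down had 1250 and 1190 CPM, overlapping the SUP-T1 libraries labelled knock-down at 1330, 1300 and 1240 CPM. CCND2 averaged 0.0531 ± 0.036 CPM in SUP-T1 controls against 30.2 ± 1.83, 7.71 ± 0.34 and 0.42 ± 0.156 CPM. Of 22 mismatch repair and DNA damage genes, 2 held as lower (9.09%), MGMT among them, and 0 as higher. MGMT, which repairs alkylated guanine, averaged 17.9 ± 0.461 CPM in SUP-T1 controls and 15.1 ± 1.85 CPM in SUP-T1 labelled knock-down, against 48.2 ± 0.204, 42.1 ± 2.04 and 49 ± 1.36 CPM in CCRF-CEM, MOLT4 and THP6. Of 27 genes of asparagine, serine and one-carbon metabolism, ASS1 and GGH held as lower (7.41%) and 0 as higher. ASS1, which makes argininosuccinate for arginine synthesis, was at 5.04, 3.91 and 1.47 CPM in SUP-T1 controls, against 131 ± 6.11, 964 ± 38.7 and 525 ± 26.4 CPM in CCRF-CEM, MOLT4 and THP6.

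Of 17 MHC class I presentation genes, 4 (23.5%) held as lower and 1 (5.88%), HLA-F, as higher, beside 5.73% and 3.75% of all tested genes. HLA-F was at a low level, 1.86 CPM in SUP-T1 controls against 0, 0.344 and 0.0601 CPM in CCRF-CEM, MOLT4 and THP6. In the MOLT4 libraries labelled knock-down it was at 1.47 and 1.53 CPM. Of 9 MHC class II presentation genes, HLA-DMB held as lower and HLA-DQB1 as higher (11.1% each), both at low levels. HLA-DMB averaged 0.0126 CPM in SUP-T1 controls against 0.211, 0.33 and 0.694 CPM in CCRF-CEM, MOLT4 and THP6. HLA-DQB1 averaged 0.592 CPM in SUP-T1 controls and 0.391 CPM in SUP-T1 labelled knock-down, against 0 CPM in those lines. The immunoproteasome subunit PSMB9 averaged 6.02 ± 0.437 CPM in SUP-T1 controls against 71.2 ± 1.77, 24.8 ± 0.172 and 96.3 ± 2.79 CPM in CCRF-CEM, MOLT4 and THP6, and PSMB10, NLRC5 and CALR were the other lower ones. Of 18 chemokine and homing receptors, 5 (27.8%) held as lower, namely CCR2, CCR4, CCR7, S1PR1 and S1PR4, and CXCR5 (5.56%) as higher. S1PR1, by which T cells leave the thymus in mice, averaged 0.516 ± 0.284 CPM in SUP-T1 controls against 5.14 ± 0.316, 3.87 ± 0.427 and 26.4 ± 4.84 CPM. The cytosolic ribosomal proteins, 67 genes, gave 0 in either direction. Of 30 integrins and adhesion genes 4 (13.3%) held as lower, of 23 NF-κB genes 2 (8.7%), of 24 BCL2 family and death receptor genes 2 (8.33%), of 23 HOX genes 2 (8.7%), of 15 imprinted genes 2 (13.3%), of 7 cancer-testis genes 2 (28.6%), and of 7 cytotoxic granule genes 2 (28.6%). In each of these 7 lists at most 1 gene held as higher.

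**Figure D5:**
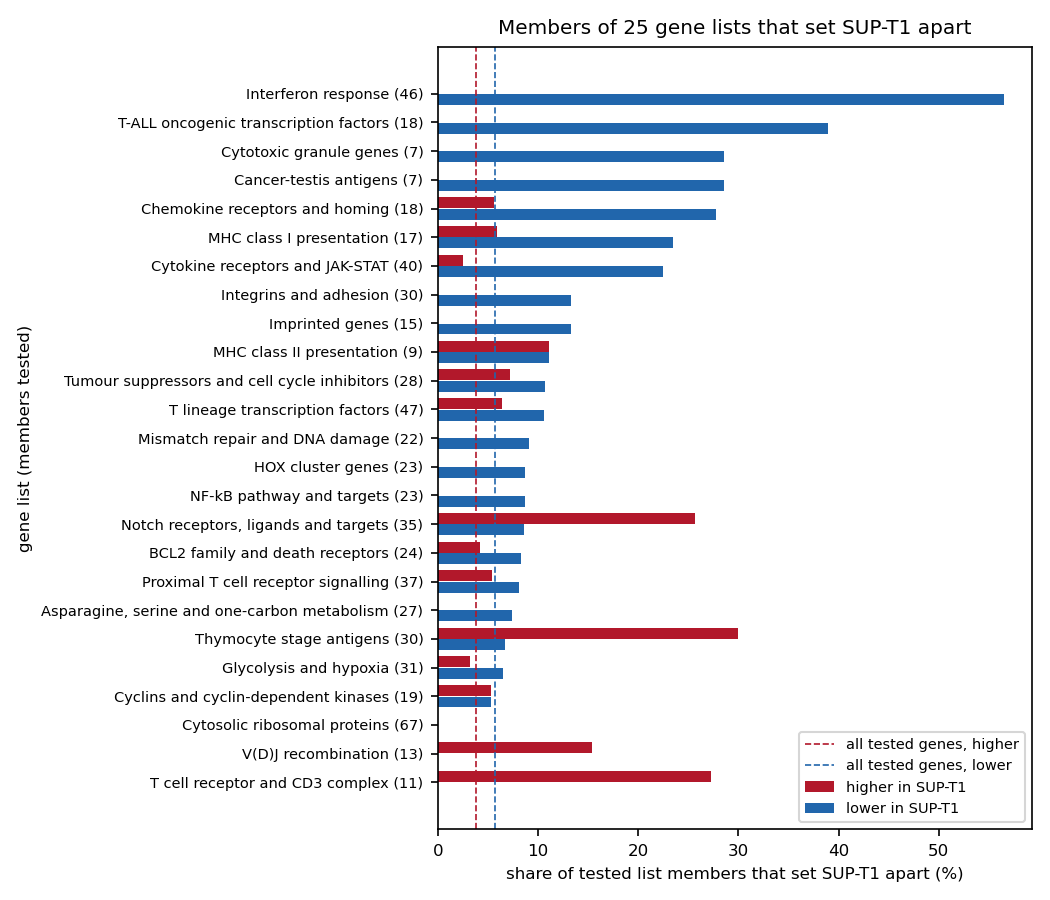
Share of the tested members of 25 gene lists (rows, number tested in parentheses) that held as higher (red) or lower (blue) in SUP-T1, in percent on the horizontal axis; dashed lines give the share of all 18291 tested genes, 3.75% higher and 5.73% lower. Thymocyte stage antigens, T cell receptor genes and Notch genes have the longest red bars and interferon response genes the longest blue bar, while ribosomal proteins have none.

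Held genes were spread over the chromosomes. With coordinates from GENCODE 29 (GRCh38), chromosome 20 had the largest share of lower genes, 53 of 468 (11.3%), and a median difference of -0.316 on the log2(CPM + 1) scale; chromosome 15 had the smallest share, 15 of 625 (2.4%), and a median of 0.216. Runs of at least 4 coding genes that held in 1 direction, neighbours among the tested coding genes, were found at 4 places. Coding genes that were not tested can lie between them. On chromosome 1, at 158254137 to 158480936, CD1A, CD1C, CD1B, CD1E and the olfactory receptor genes OR10T2 and OR10R2 were higher. The olfactory receptor OR10R2 was at 9.28, 10.5 and 8.38 CPM in SUP-T1 controls and had 1 count in the 8 other libraries together. Also on chromosome 1, at 89006666 to 89272804, the interferon-induced GTPases GBP3, GBP1, GBP2 and GBP5 were lower. On chromosome 10, at 88822132 to 89015785, ANKRD22, STAMBPL1, ACTA2 and the death receptor FAS were lower, and on chromosome 11, at 103109410 to 105101431, DYNC2H1, CASP4, CASP1 and CARD16, 3 of which belong to the inflammatory caspase group. Long intergenic RNAs held as higher more often than coding genes, 10.1% of 843 against 3.01% of 13781, and nearly as often as lower, 6.64% against 6.25%. The filter lets in a gene with counts in 1 line alone. How many genes of each type entered in that way was not examined, so these shares are a description. The strand setting of the counts is not given, so reads of opposite-strand neighbours such as FAS and ACTA2, RAG2 and RAG1, RSAD2 and CMPK2, IFIT1 or IFIT3 and LIPA, and CISH and MAPKAPK3 cannot be told apart.

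Of the 2292 genes that set the SUP-T1 controls apart, 558 did not hold with the libraries labelled knock-down, 308 of the higher and 250 of the lower ones, and 0 of them set those libraries apart in the other direction. A further 279 genes passed with the libraries labelled knock-down alone. The largest gaps among those that did not hold were BMP10, ADAMTSL2 and RORB on the higher side and S100A11, COPS6 and RXRA on the lower side. S100A11, a calcium-binding protein, was at 8.10, 6.85 and 7.88 CPM in SUP-T1 controls and 55.8, 55.4 and 47.1 CPM in SUP-T1 labelled knock-down, against 45.9, 48.8 and 44.3 CPM in CCRF-CEM, 49.9 and 47.5 CPM in MOLT4 and 93.0, 92 and 89.2 CPM in THP6. BMP10, a growth factor of the heart, was at 17.4, 18.0 and 16.7 CPM in SUP-T1 controls and 3.64, 3.01 and 4.04 CPM in SUP-T1 labelled knock-down, against up to 2.15 CPM in the other lines. For these genes the 2 SUP-T1 arms differ, and no statement on SUP-T1 as a line rests on them.

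The held genes were also set against libraries of the other lines that the choice did not use. The 6 SUP-T1 libraries of both arms are the ones used in the choice, so the shares are a description. Of the 686 higher genes 637 (92.9%) were higher in all 6 SUP-T1 libraries than in all 7 knockdown libraries of the other T-ALL lines, beside 10.5% of all tested genes. Of the 1048 lower genes 935 (89.2%) were lower in all 6, beside 12.3%. Those 7 libraries come from the same 3 lines. Among the held genes named here, NOTCH3, DTX1, ID1 and CDKN1A reached the SUP-T1 controls in MOLT4 libraries labelled knock-down, as did THEMIS in THP6, and CCR2 in MOLT4, CCND2 in THP6 and HLA-DMB in CCRF-CEM were as low as a SUP-T1 control in 1 such library. The 6 SUP-T1 libraries were also set against the 7 control libraries of the cutaneous T-cell lymphoma lines H9, MyLa and Mac1, which are other lines. All 6 lay above all 7 for 432 higher genes (63.0%) and below all 7 for 456 lower genes (43.5%), beside 17.0% and 12.7% of all tested genes. When counts were summed per line and SUP-T1 was tested against the other 3 lines as replicates, edgeR called 0 of 20970 genes, with 1494 at an unadjusted p under 0.05, and limma-voom also called 0, with 1593. That test sets 1 line against 3 and says nothing on whether the differences between libraries are stable. SUP-T1 is 1 line, and the values describe these 4 lines.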

How the data were processed

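Expected counts per gene were made by the authors with cutadapt 2.3, STAR 2.7.8a, GRCh38 and RSEM 1.3.3, per the submitters' processing notes; no source used here gives the annotation release or the strand setting. All deposited values were whole, so rounding to whole numbers changed 0. Samples were grouped by title; the cell line field of SUP-T1 carries running numbers. Rows of 5 reporter or recombinase sequences, with 0 counts, were left out beside 60623 gene identifiers. edgeR 4.0.16 (R 4.3.3) fitted the 11 control libraries, 1 mean per line, after TMM scaling over 36 libraries and filterByExpr (18291 genes tested), with quasi-likelihood F tests and Benjamini-Hochberg adjustment over all tested genes; SE is the absolute log2 difference divided by the square root of F. The common dispersion was 0.0069. The fit was tested on simulated data. The members, lists and tests were chosen with earlier results of these data known.

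Genes named are GATA3, the 15 highest and 15 lowest held genes without overlap between libraries by the smallest of 3 differences of mean log2(CPM + 1), up to 6 held members per list by the same measure, and 3 per direction that did not hold. NOTCH1, NOTCH3, DTX1, IGF1R, LFNG, CD1C, CD1D, CD2, CD4, CD8A, CD28, CD3E, TRBC2, TRBV9, HES1, MYC, RAG1, LYL1, STAT2, STAT5B, IRF1, IRF9, ISG15, MX1, RSAD2, IFIT1, IFIT3, OAS1, OAS2 and genes of runs, of the threshold edge and of the sets with 0 counts were chosen after their values were seen. Variable segments, XIST and Y-linked genes were not named by rule, and some genes the rule names are not reported here. Annotation was GENCODE 29, which held 98.9% of tested genes. Folds against groups at 0 use 3 counts per library. Alternatives were DESeq2 1.42.0 and its size factors, limma-voom (limma 3.58.1), other scalings, filters and minimum sizes. Further ones were replicate number as a block, all 36 libraries, the other SUP-T1 arm and leaving out each of the 11 control libraries.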

Additional observations from a re-analysis of the deposited data

Results flagged for a closer look

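The 2 SUP-T1 arms gave different answers to the same contrast with the other T-ALL lines for the 8 genes given here, each of which set the controls apart and not the libraries labelled knock-down. The values are the libraries labelled knock-down minus those labelled control, on the log2 scale, in edgeR over 14 libraries. For GATA3, the gene the hairpin targets, this difference was 1.76 (adjusted p = 3.13e-10). For CD4 it was -0.25 (adjusted p = 0.00938), and both arms were above the other lines. The other 6 genes were picked as the largest gaps that passed with the controls and not with the libraries labelled knock-down, so their differences are a description and not a test. The difference was 2.80 for S100A11, 1.66 for COPS6, a subunit of the COP9 signalosome, and 1.22 for RXRA, a retinoid receptor. It was -2.29 for BMP10, -2.99 for ADAMTSL2, a secreted matrix protein, and -1.55 for RORB, an orphan nuclear receptor. Groups of 2 or 3 libraries were too small for a test of single outlying libraries.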

How the results depend on the processing

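The counts depended on the minimum size of the difference. With no minimum log2 difference, 12926, 12324 and 13072 genes were called against CCRF-CEM, MOLT4 and THP6, 2633 higher and 2892 lower genes set SUP-T1 apart, and 1733 and 2241 of them held. With a minimum of 2, these were 3642, 3310 and 3729 called, 472 higher and 794 lower, and 366 and 675 held. The cause is the threshold itself. Every other alternative left these counts within 1.5 times. Leaving out each of the 11 control libraries in turn gave 6176 to 6320 calls against CCRF-CEM, 5633 to 5927 against MOLT4 and 6444 to 6636 against THP6. It gave 927 to 997 higher and 1249 to 1294 lower genes that set SUP-T1 apart. Of held genes there were 625 to 685 higher and 1010 to 1047 lower ones. The 3 SUP-T1 libraries labelled knock-down, on which the held counts also rest, were not left out. Of these, replicate 3 scattered more from the other replicates. With replicate number as a block, 644 higher and 1024 lower genes held, and 1655 of the 1668 were among the 1734. The block called 6260, 5768 and 6567 genes in the 3 comparisons. Numbers did not pair the libraries: correlations of residuals over 15 same-numbered pairs ran from -0.147 to 0.136, and 2 of 11 libraries correlated best with their own number. DESeq2 held 1596 genes, 1583 of them among the 1734. Of 3960 recomputed values of 180 single genes, 3905 kept their call or their lack of one, 48 lost the call and 7 gained it. In 0 did a gene with the same direction in all 3 comparisons turn to the opposite direction in all 3. The difference nearest to 0 did change sign for some genes. For S100A11 it ran from -2.654 to 0.1157 over the alternatives, and for LYL1, which was not called, from -0.3413 to 0.5704. LFNG was the 1 gene that lost its call outside the minimum of 2 and the other SUP-T1 arm. With lines as replicates, 0 genes were called under DESeq2 size factors (1491 at an unadjusted p under 0.05), no filter (1685), limma-voom (1593) and the other arm (1337). Depth limits statements on genes at 0, and MOLT4 rests on 2 libraries.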
